A study of Mus musculus with 18 samples.

Results

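The comparison described here sets T cells from tumors of Nr2f6-/- mice against T cells from tumors of Nr2f6+/+ (wild-type) mice when all animals had received the control antibody IgG2b. It holds 6 of the 18 samples of the study, 3 of each genotype, taken by their genotype and antibody labels, and 11992 of the 37236 genes listed, those whose normalized counts averaged 10 or more across the 18 samples. It addresses which transcripts of these cells differ with the loss of Nr2f6 alone, without checkpoint blockade. The other 12 samples, 6 of each genotype, came from mice given an antibody against PD-L1 and are used below for comparison. In the main test (limma) all 18 samples also share the estimate of each gene's spread. The SE and p-values of the IgG2b comparison in limma therefore rest on the anti-PD-L1 samples too.

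All mice were C57BL/6 by strain, and the Nr2f6 deletion had been back-crossed to it 8 times. The animals were 8 to 12 weeks old. Each was injected under the skin with 500000 B16-OVA cells, a mouse melanoma line that carries ovalbumin, and was given 0.5 mg of IgG2b (clone LTF-2) into the peritoneum from day 3 on, 2 times a week. Tumors were taken on day 14. Tumor-infiltrating cells were enriched with beads for CD4 and CD8, the fractions were combined, and CD3+ cells were sorted. The deletion is in the germline, so every cell type of the knockout mouse lacks the gene, and each sample mixes CD4+ with CD8+ T cells in shares that were not fixed. In such bulk samples fewer cells of a type and less RNA per cell cannot be told apart. Libraries held the 3′ ends of transcripts, and levels are therefore compared between samples and not between genes. Reads on genes numbered 14766180 to 16377525 per Nr2f6-/- sample and 14743758 to 17327838 per wild-type sample.

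NR2F6 is an orphan nuclear receptor of the COUP-TF family, also called EAR2 or COUP-TFIII. It is known as a repressor in T cells, where it limits the access of the activation-induced factors NFAT and AP-1 to cytokine genes such as Il2 and Ifng. T cells in a tumor usually show activation, a cytotoxic program and inhibitory receptors side by side, and PD-1 and CD39 (Entpd1) are receptors and enzymes often used to mark such cells.

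Nr2f6 itself (chromosome 8, 71374118 to 71381967 in GRCm38.p6) was at 0 in all 3 Nr2f6-/- samples and at 20.2, 101 and 35.7 normalized counts in the wild-type samples. The labels and the gene thus went together in all 6 samples. Against 3 reads per library as the floor, the level was at least 17.8-fold lower in the knockout. The difference on the scale of log2(normalized count + 1) was -5.43 ± 1.50 (SE), with an adjusted p = 0.579 over all genes, and an exact permutation test, two-sided, gave p = 0.1, the smallest that 3 against 3 samples allow. The wild-type level was low and spread over a wide range, and the deleted gene did not pass the threshold across all genes in limma but passed it in DESeq2 (adjusted p = 0.00717).

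No gene passed an adjusted p of 0.05 in limma (0% of 11992 genes), and the smallest adjusted p was 0.0836, for Ppbp. With edgeR on the recovered reads the count was 0 as well, and with DESeq2 it was 74 of 11736 genes with an adjusted p (0.631%), 20 higher and 54 lower. Of these 74 genes 61 had no read in all samples of one genotype, 45 had over 70% of the reads of the 6 samples in 1 sample, and 29 had an unadjusted p under 0.05 in limma. At an unadjusted p under 0.05, limma counted 641 genes (5.35%), of which 243 (2.03%) were higher and 398 (3.32%) lower in Nr2f6-/- samples. A share of 5.35% is near what this threshold lets through by its definition, though the count was larger under some alternative settings, given at the end. Single genes named below are therefore described by their values and, where one is given, by limma's adjusted p, and limma called none. DESeq2 called 11 of them, namely Nr2f6, Paics (adjusted p = 2.14e-05), Asf1b (0.00565), Morf4l2 (0.0126), Vmp1, Cenpa, Atp5f1, 4933404O12Rik, Clgn, Sort1 and Tpm4 (0.0243), and limma with sample weights called Paics, Morf4l2, Ppbp and 4933404O12Rik.

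The leaning towards lower values was found among weakly expressed genes. Among 8541 genes with a mean of at least 100, 208 were higher and 237 lower at an unadjusted p under 0.05, and the median log2 fold change was -0.02. Among 3451 genes with a mean under 100, 35 were higher and 161 lower, and the median was -0.55. The filter averaged all samples, so a weak gene could enter through the 1 group where it was high. Ppbp and Pdpn, described below, entered through wild-type IgG2b, and the part of this selection in the leaning was not tested. Of the 398 lower genes 55 had no read in any Nr2f6-/- sample, and 7 of the 243 higher genes had none in any wild-type sample. The Nr2f6-/- samples had between 12254 and 12463 genes with a read, and the wild-type samples between 13019 and 13655, with no overlap (exact permutation p = 0.1, the smallest possible). Nr2f6-/- samples resembled each other about as much as they resembled wild-type samples. Pearson's r of log2 values, across genes, was between 0.810 and 0.833 within Nr2f6-/-, between 0.845 and 0.863 within wild type and between 0.807 and 0.841 across genotypes.

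**Figure D1:**
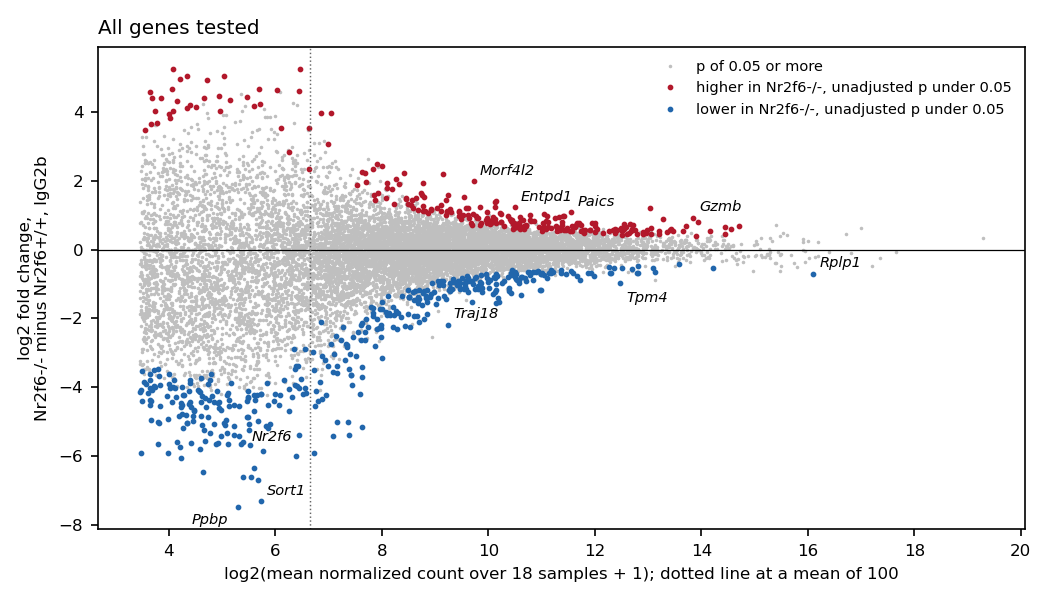
All 11992 genes tested, with the log2 mean normalized count over 18 samples on the x axis and the log2 fold change of Nr2f6-/- against Nr2f6+/+ under IgG2b on the y axis. Red points are the 243 genes higher and blue points the 398 genes lower at an unadjusted p under 0.05. To the left of the dotted line, at a mean of 100, the blue points outnumber the red ones by 161 to 35.

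Summed markers of some other cell types stood apart between the genotypes and are given beside the genes that follow. All 10 T cell markers were present, with a summed level of 112591 to 122055 in Nr2f6-/- and 88983 to 107059 in wild-type samples. The sum of 14 macrophage and monocyte markers was 9795 to 13077 in Nr2f6-/- and 16410 to 20354 in wild-type samples, and 13 of 14 had a lower mean in the knockout, 1 of them, Arg1, at an unadjusted p under 0.05. Lyz2, the lysozyme of these cells, was at 4008, 2925 and 6005 in Nr2f6-/- samples and at 7325, 7220 and 6244 in wild-type samples. The ranges did not overlap for either sum, with T cell markers higher and macrophage markers lower in the knockout. Of the 10 T cell markers 0 were higher at an unadjusted p under 0.05 and 1, Lat, was lower, and Trbc2 made up the greater part of the difference in the sum.

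Melanocyte markers, which B16 cells express, summed to 1240.1 to 2433 in Nr2f6-/- and 2579 to 4757 in wild-type samples, with 7 of 8 lower. The 6 platelet markers summed to 268 to 703 against 2300 to 2611, and this sum was nearly all Pf4, a chemokine of platelets that macrophages also make, since Itga2b, Gp9, Gp1bb and Treml1 were at 0 in all 6 samples. The gamma delta T cell markers summed to 1806 to 3178 in Nr2f6-/- and 1208 to 1705 in wild-type samples, mostly Tcrg-C2 (log2 fold change 0.86 ± 0.36, SE). Sums of dendritic cell, neutrophil, B cell, NK cell, erythroid and fibroblast or endothelial markers overlapped between genotypes, and the defining markers Cd79a, Ncr1 and Retnlg were at 0 in all 6. The B cell sum was mostly Ighm, and the 4 tested B cell markers were all below 0, Cd79b (0.951, 0 and 0 against 192, 6.25 and 12.4) and Jchain (0, 27.3 and 0 against 40.4, 130.3 and 43.9) with groups apart and an unadjusted p under 0.05. The part of these cells in the differences below was not tested. The log2 ratio of Cd8a to Cd4 was 0.110, 2.19 and 1.20 in Nr2f6-/- samples and 0.920, 0.545 and 1.19 in wild-type samples (exact permutation p = 0.7). It was nearly even in 1 knockout sample and far towards Cd8a in another, and without the latter, replicate 2, the difference of means turned from 0.28 to -0.23.

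**Figure D2:**
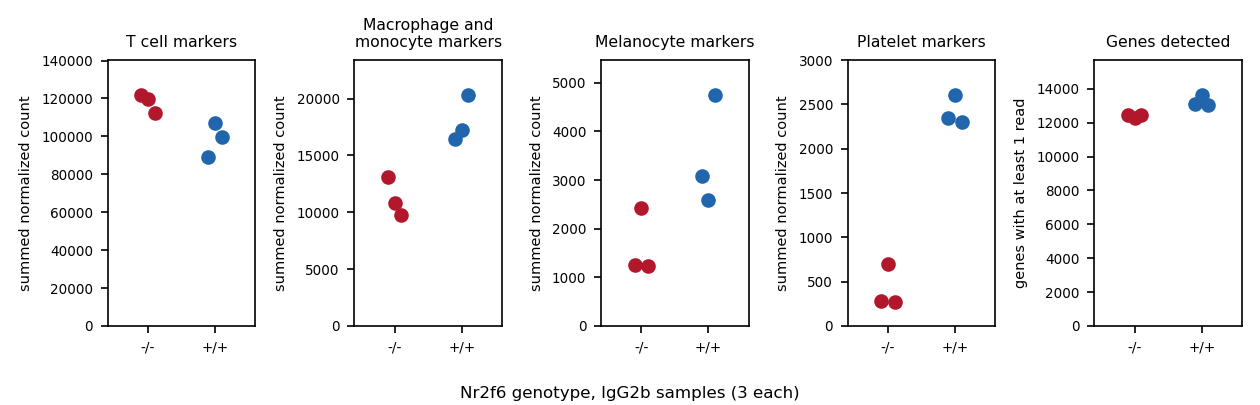
Summed normalized counts of T cell, macrophage and monocyte, melanocyte and platelet markers, and the number of genes with at least 1 read, in each IgG2b sample by genotype (3 points each, y axes from 0). The points of the 2 genotypes did not overlap in any of the 5 panels, T cell markers being higher and the other 4 measures lower in Nr2f6-/- samples. The 4 sums shown are among those that stood apart. Sums of dendritic cell, neutrophil, B cell, NK cell, erythroid and fibroblast or endothelial markers overlapped and are not shown.

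The genes with the smallest p among those higher in Nr2f6-/- samples were Paics, Asf1b, Morf4l2, Vmp1, Ccl3, Cenpa, Entpd1, Atp5f1, Serpina3f and Dpp4. Each was above the wild-type samples in all 3 knockout samples. Across all genes tested, the 3 samples of one genotype lay entirely above or below those of the other in 1699 (14.2%). At an unadjusted p under 0.05, 185 of the 243 higher and 302 of the 398 lower genes did. Groups that lie apart in genes picked by a small p are thus largely fixed by that choice, here and below, and are no independent evidence.

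Entpd1 encodes CD39, an ectoenzyme that breaks down extracellular ATP and marks antigen-experienced and regulatory T cells. Its level was 1644, 2262 and 1181 in Nr2f6-/- samples and 803, 888 and 480.1 in wild-type samples. The lowest knockout value lay above the highest wild-type value, and the log2 fold change was 1.23 ± 0.34 (SE; adjusted p = 0.579). Dpp4, the cell surface peptidase CD26 that trims chemokines and costimulates T cells, was at 1892, 1872 and 1176 against 603, 557 and 682. The knockout samples were all higher, by 1.39 ± 0.40 on the log2 scale (adjusted p = 0.595).

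Ccl3, a chemokine that activated T cells secrete to draw other leukocytes, was at 11978, 7325 and 11594 in Nr2f6-/- samples and at 6558, 4717 and 2694 in wild-type samples (log2 fold change 1.20 ± 0.32, adjusted p = 0.575). The groups were close at their edges, with a gap only between 6558 and 7325. Serpina3f, a serine protease inhibitor, was at 579, 645 and 555 against 330.3, 54.2 and 114. The wild-type samples were uneven here while the knockout samples lay close together.

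Paics, an enzyme of de novo purine synthesis, had the smallest p of the higher genes (adjusted p = 0.157 in limma and 2.14e-05 in DESeq2), and it also passed in limma without the filter on low values and with sample weights. It was at 4413, 4678 and 4211 in Nr2f6-/- samples and at 2360, 2040 and 1859 in wild-type samples, a difference of 1.09 ± 0.22 on the log2 scale. The samples of each genotype lay close together, and the mean was 2.13-fold higher in the knockout. Asf1b, a histone chaperone of DNA replication, was at 3885, 4173 and 3423 against 2223, 1558 and 2041. Cenpa, the histone H3 variant of centromeres, was at 6899, 9560 and 6437 against 4618, 4155 and 4808. Both belong to dividing cells and were above every wild-type sample in all 3 knockout samples.

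Morf4l2, a subunit of chromatin complexes with histone acetyltransferase activity, was at 1883, 1285 and 2311 against 354, 504 and 492 (log2 fold change 1.995 ± 0.49, adjusted p = 0.480). Vmp1, a membrane protein needed for autophagosome formation, was at 2749, 3958 and 3374 against 1582, 1568 and 1905. Atp5f1, a subunit of the mitochondrial ATP synthase, was at 8466, 8306 and 9201 against 5099, 5959 and 4622. For these 3 genes too the groups did not overlap.

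**Figure D3:**
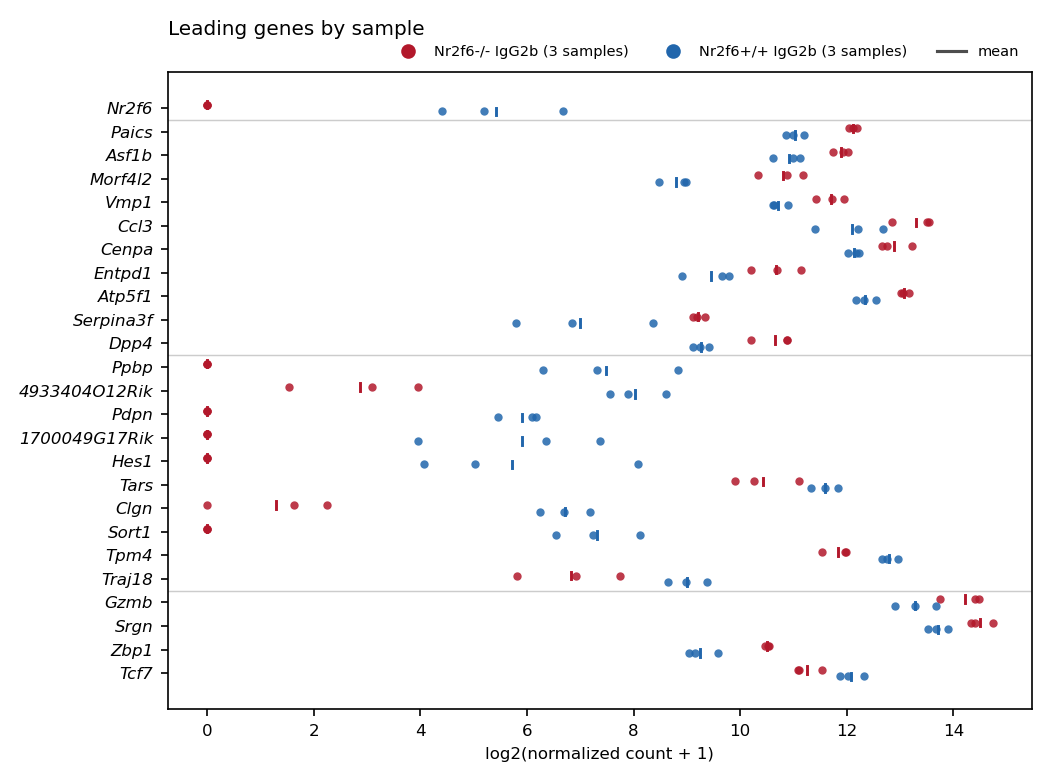
Level of Nr2f6, of the 10 genes with the smallest p in each direction and of Gzmb, Srgn, Zbp1 and Tcf7 in each IgG2b sample, as log2(normalized count + 1). Red points are the 3 Nr2f6-/- samples, blue points the 3 Nr2f6+/+ samples and ticks their means; in every row the points of the 2 genotypes do not overlap, and Nr2f6, Ppbp, Pdpn, 1700049G17Rik, Hes1 and Sort1 are at 0 in all 3 Nr2f6-/- samples.

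The 10 genes with the smallest p among those lower in Nr2f6-/- samples were Ppbp, 4933404O12Rik, Pdpn, 1700049G17Rik, Hes1, Tars, Clgn, Sort1, Tpm4 and Traj18. Of these, 5 had a mean under 100 (Ppbp, Pdpn, 1700049G17Rik, Hes1 and Sort1). Ppbp, a chemokine of platelets, was at 0 in all 3 knockout samples and at 452, 158 and 77.9 in wild-type samples, at least 78.2-fold lower against the floor of 3 reads per library (adjusted p = 0.0836). Its mean was also 0 in both genotypes with anti-PD-L1, so that every read of this gene was in the 3 wild-type IgG2b samples. Pdpn, a mucin-like glycoprotein of stromal cells and some macrophages, was at 0 against 67.6, 42.7 and 71.3, and it too had no read with anti-PD-L1, so that both genes passed the filter only through the wild-type IgG2b samples. Sort1, a sorting receptor of the Golgi, was at 0 against 92.2, 278 and 151.

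Hes1, a transcriptional repressor that Notch signaling induces, was at 0 in the knockout and at 15.8, 269 and 31.5 in wild-type samples. With anti-PD-L1 the mean of Hes1 was 0 in Nr2f6-/- and 0.174 in wild-type samples, and that of 1700049G17Rik 0.369 and 0.777. Hes1 and 1700049G17Rik thus also passed the filter only through the wild-type IgG2b samples. Clgn, a chaperone of the endoplasmic reticulum, was at 0, 3.77 and 2.08 against 74.7, 102 and 144. The gene 4933404O12Rik was at 1.90, 7.54 and 14.6 against 391, 237 and 188. In each of these genes the knockout samples were near or at 0, and the fitted fold changes depend on the pseudocount.

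Arg1 and Lpl, which macrophages also express, were chosen here after their values were seen. Arg1, an arginase, was at 265, 0 and 0 in Nr2f6-/- samples and at 1032, 125 and 443 in wild-type samples, with overlap. Lpl, lipoprotein lipase, was at 6.66, 69.7 and 243 against 548, 296 and 1099, all 3 lower. Macrophage markers summed to 9795 to 13077 and 16410 to 20354 in the same samples, and the part of such cells in these differences was not tested.

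3 of the lower genes were well expressed. Tars, the threonyl-tRNA synthetase, was at 955, 2188 and 1228 in Nr2f6-/- samples and at 2563, 3633 and 3086 in wild-type samples (log2 fold change -1.16 ± 0.30). Tpm4, an actin-binding tropomyosin, was at 2949, 4015 and 4038 against 7987, 6506 and 6878 (log2 fold change -0.97 ± 0.25, adjusted p = 0.480). Traj18, the joining segment of the invariant receptor chain of NKT cells, was at 55.2, 213 and 121 against 664, 508 and 397 (log2 fold change -2.17 ± 0.56). In all 3 the groups were apart.

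The promoters of 4 of these genes are shown because NR2F6 is a DNA-binding factor: Entpd1, Ccl3 and Gzmb, which were higher, and Tpm4, which was lower. The 4 were chosen after their values were seen; Gzmb, the protease granzyme B, is described below. Each is the 250 bases before the first start that RefSeq lists (GRCm38.p6), 5′ to 3′ on the strand of the gene. Searched on both strands were the nuclear receptor half-site AGGTCA, its direct repeat with 1 base between, the AP-1 site TGAGTCA and the NFAT core GGAAA. Capitals mark the matches, and a match on the other strand appears as its complement.
Entpd1, chr19:40612116-40612365, plus strand: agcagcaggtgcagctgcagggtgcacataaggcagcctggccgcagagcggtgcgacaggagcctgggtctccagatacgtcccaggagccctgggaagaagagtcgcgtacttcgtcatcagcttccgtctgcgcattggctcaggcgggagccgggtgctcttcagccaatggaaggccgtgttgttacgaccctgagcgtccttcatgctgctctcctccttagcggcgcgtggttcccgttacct
Ccl3, chr11:83649379-83649628, minus strand: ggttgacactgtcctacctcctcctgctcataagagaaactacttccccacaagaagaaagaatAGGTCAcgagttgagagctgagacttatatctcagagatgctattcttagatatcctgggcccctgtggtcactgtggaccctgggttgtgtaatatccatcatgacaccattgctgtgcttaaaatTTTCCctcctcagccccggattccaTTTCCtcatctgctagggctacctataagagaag
Gzmb, chr14:56262335-56262584, minus strand: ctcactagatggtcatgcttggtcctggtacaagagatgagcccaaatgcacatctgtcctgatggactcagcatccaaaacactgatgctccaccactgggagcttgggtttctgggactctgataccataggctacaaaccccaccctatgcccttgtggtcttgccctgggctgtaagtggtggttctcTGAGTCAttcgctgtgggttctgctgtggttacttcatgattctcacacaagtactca
Tpm4, chr8:72135038-72135287, plus strand: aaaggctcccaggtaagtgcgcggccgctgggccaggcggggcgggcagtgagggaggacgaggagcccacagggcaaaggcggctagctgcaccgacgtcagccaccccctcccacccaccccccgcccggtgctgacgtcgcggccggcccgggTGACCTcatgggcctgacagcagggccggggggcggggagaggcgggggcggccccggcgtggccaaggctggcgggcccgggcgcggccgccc
Entpd1 held none of the 4 motifs in this window. Ccl3 held 1 half-site at position -186 and 2 NFAT cores at -59 and -34, counted back from the start. Gzmb held 1 AP-1 site at -58, and Tpm4 held 1 half-site at -94. Of 27025 promoters of the same length 13.8% held the half-site, 0.0370% the direct repeat, 4.43% the AP-1 site and 55.6% the NFAT core. Such matches describe the letters of these windows, and binding was not measured in these samples.

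Among genes with a mean of at least 100, an unadjusted p under 0.05 and groups apart, the largest positive differences were in Itgb8, Erich1, Gnb1l, Dgcr14 and Rgs8, with log2 fold changes from 2.21 (Rgs8) to 3.96 (Itgb8). Itgb8, the integrin chain that activates latent TGF-beta, was at 189, 286 and 310.2 in Nr2f6-/- samples and at 53.6, 0 and 82.1 in wild-type samples. The largest negative differences were in Clgn, Akap17b, 4933404O12Rik, 6720464F23Rik and Zfp84, from -5.00 (Zfp84) to -5.41 (Clgn). Their knockout values were 0 in at least 1 sample for each but 4933404O12Rik.

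Effector and cytokine genes were looked at next, since NR2F6 is known as a repressor of NFAT and AP-1 driven transcription. Of 16 effector cytokine genes 8 were expressed enough to be tested, and 0 of them had an unadjusted p under 0.05, against 2.03% higher and 3.32% lower of all genes. Ifng was at 3620, 3934 and 3900.1 in Nr2f6-/- samples and at 2730.4, 2076 and 3061 in wild-type samples. The 3 knockout samples were the 3 highest, and the difference was 0.56 ± 0.29 on the log2 scale, which missed even an unadjusted p of 0.05. Il2 was at 195, 62.2 and 323 against 147, 444 and 308, with full overlap. Il17a, Il17f, Il22, Il3, Il4, Il5, Il13 and Csf2 were below the filter. Without Nr2f6-/- replicate 3 the median of the list turned from 0.24 to -0.19, without wild-type replicate 3 to -0.24.

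In the cytotoxic list 3 of 19 genes (15.8%, against 2.03% of all genes) were higher and 0 lower at an unadjusted p under 0.05, and the median log2 fold change was 0.42 (0.21 to 0.71 under the alternative settings) against -0.06 for all genes. Gzmb, the granule protease that triggers apoptosis of target cells, was at 13825, 21592 and 22816 in Nr2f6-/- samples and at 13046, 7623 and 9873 in wild-type samples. The lowest knockout sample was only just above the highest wild-type sample, and the log2 fold change was 0.93 ± 0.28 (adjusted p = 0.695). Srgn, the proteoglycan that packs granzymes, was at 20466, 21800 and 27280 against 15332, 13092 and 11755 (0.79 ± 0.24). Klrk1, the activating receptor NKG2D, was at 1662, 2004 and 2755 against 1514, 685 and 1581 (0.83 ± 0.31). Prf1, the pore-forming perforin, was at 285, 237 and 380 against 393, 437 and 153, and Gzma was at 1097, 1405 and 2685 against 475, 805 and 2717, both with overlap. The higher values thus did not hold for all granule genes.

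Of 14 inhibitory receptor genes with Tox, 2 were higher, Entpd1 and Tox, and 1 was lower, Cd101 (14.3% and 7.14%, against 2.03% and 3.32% of all genes). The median was 0.13 and was just below 0 without Nr2f6-/- replicate 3 (-0.01) or wild-type replicate 2 (-0.03). Tox, the transcription factor tied to T cell exhaustion, was at 6493, 6711 and 4515 in Nr2f6-/- samples and at 3220, 3421 and 4516 in wild-type samples, so that the groups touched. Cd101, an inhibitory receptor, was at 101, 64.1 and 88.5 against 247, 576 and 232 (log2 fold change -1.94 ± 0.74, adjusted p = 0.861). Pdcd1, which encodes PD-1, was at 5338, 8034 and 8145 against 6709, 5445 and 8215, a difference of 0.07 ± 0.23 with samples of both genotypes intermixed. The 13 costimulatory receptors held 0 genes with an unadjusted p under 0.05 (median 0.12).

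The list of naive, stem-like and memory genes had the lowest median of the 20 lists, -0.49 (-0.65 to -0.21 under the alternative settings). Below 0 were 11 of its 14 genes, and 21.4% were above 0, against 45.6% of all genes. Tcf7, the transcription factor TCF1 of naive and stem-like T cells, was the only one with an unadjusted p under 0.05 (7.14%, against 3.32% of all genes lower). It was at 2173, 2200.3 and 2977 in Nr2f6-/- samples and at 3734, 5137 and 4134 in wild-type samples, lower in every knockout sample (log2 fold change -0.83 ± 0.30, adjusted p = 0.846). Il7r, the receptor chain for the survival cytokine IL-7, was at 1220.5, 750.1 and 1110 against 2044, 1862 and 1078, with overlap between genotypes.

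In the NFAT and calcineurin list 1 of 11 genes was higher, Ppp3cb, a catalytic subunit of calcineurin, and 1 was lower, Rcan1, an inhibitor of calcineurin that NFAT itself induces, 9.09% in each direction against 2.03% and 3.32% of all genes. The median of -0.07 was between -0.11 and 0.05 under the alternative settings and turned sign in 6 of 19. Rcan1 was at 23.8, 190.3 and 34.3 against 146, 268 and 366, with overlap. The 13 genes of the AP-1 family had a median of 0.29, with 7 above 0 and 6 below 0, and none with an unadjusted p under 0.05. The smallest p were those of Fosl2 (0.63 ± 0.35), with overlap, and Jund (0.64 ± 0.36). The knockout samples lay entirely above the wild-type samples in 2 genes, Fosb and Jund, and entirely below in 0, against 731 and 968 of all 11992 genes. Fosb was at 1289, 734 and 711 against 141, 318 and 235 (1.99 ± 1.53). Of 26 early activation genes 1 was higher (3.85%, against 2.03% of all genes), Gem, a small GTPase. It was at 1115, 1937 and 1143 against 736, 485 and 1042 (median of the list 0.23).

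In the proximal T cell receptor list 1 of 28 genes was higher, the phosphatase Ptpn22 (0.64 ± 0.22), and 1 was lower, the adaptor Lat (-0.52 ± 0.24), 3.57% in each direction, near the shares of all genes (median 0.15). Among lineage transcription factors 1 of 14 was higher (7.14%, against 2.03% of all genes), Id2, a factor of effector differentiation. It was at 12676, 12055 and 13954 against 9445, 8690 and 8545 (median of the list 0.05, and -0.01 after quantile normalization). In the regulatory T cell list 1 of 10 was higher (10%, against 2.03% of all genes), Foxp3, the defining factor of these cells. Its level was 836, 518 and 791 against 509, 249 and 221 (log2 fold change 1.20 ± 0.57, adjusted p = 0.920). The lowest knockout sample was only just above the highest wild-type sample, and Ikzf2, which such cells also express, overlapped between genotypes. Ccl3 was the 1 higher gene of 13 in the list of T cell chemokines and their receptors (7.69%, against 2.03% of all genes, median -0.04).

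**Figure D4:**
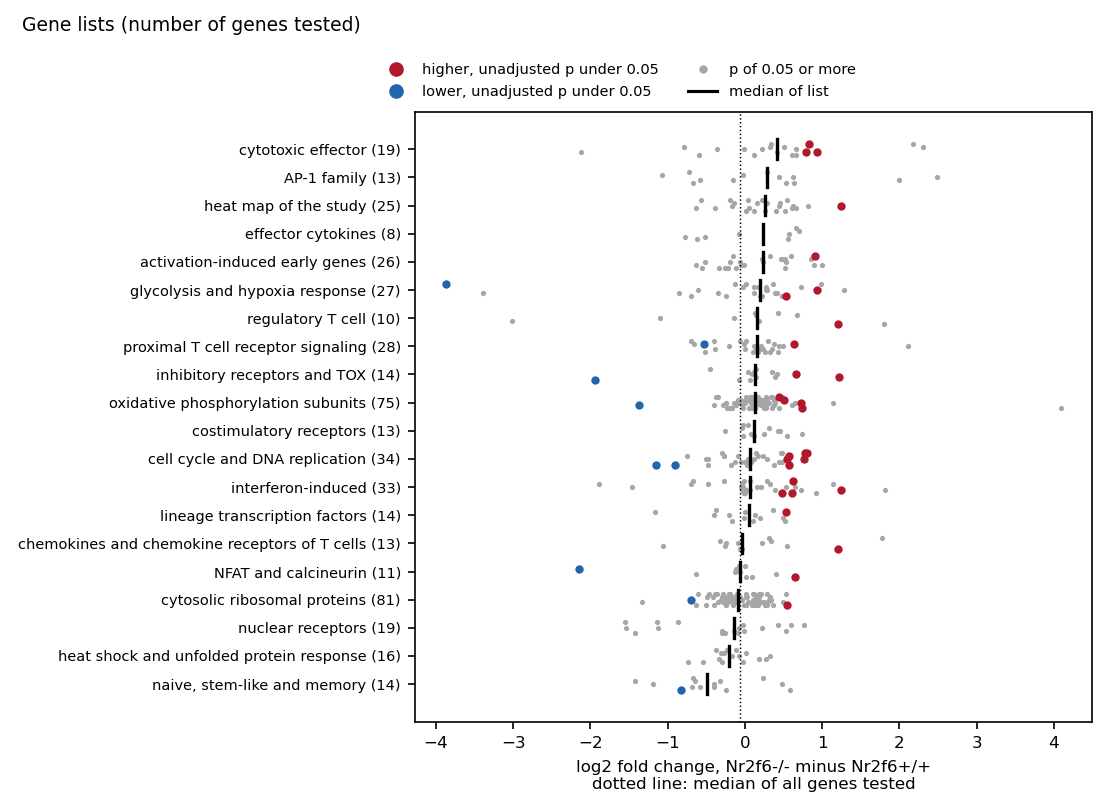
Log2 fold change of Nr2f6-/- against Nr2f6+/+ under IgG2b on the x axis for each tested gene of 20 lists, ordered by median, with the number of genes tested in parentheses. Red and blue points have an unadjusted p under 0.05, short black lines are list medians, and the dotted line is the median of all genes, -0.06; list medians run from -0.49 (naive, stem-like and memory) to 0.42 (cytotoxic effector).

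Of 33 interferon-induced genes 4 were higher, Zbp1, Ifi47, Igtp and Tap1 (12.1%, against 2.03% of all genes), with 0 lower and a median of 0.06. Zbp1, a sensor of Z-form nucleic acids, was at 1404, 1474 and 1481 in Nr2f6-/- samples and at 525, 763 and 565 in wild-type samples (log2 fold change 1.25 ± 0.36, adjusted p = 0.610). Ifi47 and Igtp, GTPases of the defence against intracellular pathogens, overlapped between genotypes in 1 sample each, since knockout replicate 2 lay at 7243 and 4278 and within the wild-type range. Tap1, the peptide transporter of antigen presentation, was at 6742, 6954 and 7283 against 5494, 4819 and 4735. Isg15, a textbook member of the response, was at 1147, 354 and 417 against 593, 515 and 561, with full overlap.

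Of 34 cell cycle and replication genes 6 were higher and 2 lower (17.6% and 5.88%, against 2.03% and 3.32% of all genes). The median of 0.07 turned to -0.01 without Nr2f6-/- replicate 2 and to -0.02 without wild-type replicate 2. Higher were Ccna2 (cyclin A2), Mcm2 (a subunit of the replicative helicase), Pcna (its sliding clamp), Rrm1 and Rrm2 (ribonucleotide reductase) and Tk1 (thymidine kinase), with log2 fold changes from 0.55 (Rrm1) to 0.80 (Mcm2). Mcm2 was at 3841, 4353 and 3164 against 2216, 1889 and 2396. Lower were Aurka, a mitotic kinase, at 331, 503 and 416 against 729, 863 and 725, and Gins2, also a replication factor. Mki67 and Top2a, the usual markers of proliferation, differed by -0.18 ± 0.60 and -0.13 ± 0.29 and did not separate the genotypes.

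In glycolysis and the hypoxia response 2 of 27 genes were higher (7.41%, against 2.03% of all genes), the enzymes Pkm and Hk1, and 1 was lower (3.70%, against 3.32%), Vegfa, an angiogenic factor that was at 0, 0 and 33.3 against 230.2, 24.0 and 17.4 (median 0.20). Pkm was at 19195, 19189 and 17220 in Nr2f6-/- samples and at 14561, 13000 and 10943 in wild-type samples. Of 75 genes taken by their names as subunits of oxidative phosphorylation 4 were higher (5.33%, against 2.03% of all genes), among them Atp5f1, Ndufv3 and Cox7b. Lower was 1 (1.33%, against 3.32%), Atp5sl, which entered the list by its name only and is not counted here as a true subunit. Above 0 were 53 of the 75 (70.7%), against 45.6% of all genes (median 0.13, and 0.07 after quantile normalization). Cytosolic ribosomal proteins had 1 higher, Rpl28, and 1 lower, Rplp1, of 81 (1.23% each, against 2.03% and 3.32%, median -0.08). The knockout samples lay entirely below the wild-type samples in 17 of the 81 and entirely above in 1. Over all 11992 genes it was 968 below and 731 above, so the share below was larger and the share above smaller in this list. Rplp1, a stalk protein of the large subunit, was at 50583, 41100 and 47478 against 78696, 85585 and 62690, lower in every knockout sample.

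The lists of 19 nuclear receptors and of 16 heat shock and unfolded protein genes held 0 genes with an unadjusted p under 0.05, with medians of -0.14 and -0.20. A heat map of the study names 25 genes, chosen on samples of this series for their difference with anti-PD-L1, so that their direction with that antibody is no independent evidence. Under IgG2b 19 of the 25 (76%, against 45.6% of all genes) were above 0, with a median of 0.27. At an unadjusted p under 0.05, 1 of them, Zbp1, was higher (4%, against 2.03% of all genes). With anti-PD-L1, where they were chosen, 23 of them were higher at that threshold and the median was 1.02.

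The same genotype difference was measured with anti-PD-L1 in 12 other samples, and the group means of the 2 comparisons share no sample. Both use the same estimate of each gene's spread in limma, so their p-values are not independent. The IgG2b library numbers go up to 36, while anti-PD-L1 replicates 4 to 6 of each genotype carry the numbers 43 to 48. Antibody and these later numbers were not separated here. With that antibody 1167 genes (9.73%) had an unadjusted p under 0.05. Of the 638 IgG2b genes that had a direction there, 388 (60.8%) had the same direction, as had 53.7% of all genes. The share was 66.1% for the higher genes (160 of 242) and 57.6% for the lower ones (228 of 396). 82 genes (0.684% of all) had an unadjusted p under 0.05 and the same direction with both antibodies, 41 higher and 41 lower, which is 12.8% of the 641 IgG2b genes and 7.03% of the 1167 anti-PD-L1 genes, and 13 had opposite directions. Over all genes the log2 fold changes of the 2 comparisons had a Pearson r of 0.09, across genes, which are not independent replicates.

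Entpd1 and Dpp4 differed by nearly the same amount with both antibodies. Entpd1 differed by 1.23 ± 0.34 with IgG2b and by 1.27 ± 0.24 with anti-PD-L1 (adjusted p = 0.0133 there), and Dpp4 by 1.39 ± 0.40 and 1.26 ± 0.28. Asf1b, Vmp1, Ccl3, Gzmb, Srgn, Klrk1, Zbp1, Tox, Ptpn22, Gem, Ifi47, Igtp and Id2 were also higher at an unadjusted p under 0.05 with both antibodies. Among the lower genes Tpm4 differed by -0.97 ± 0.25 with IgG2b and by -1.74 ± 0.17 with anti-PD-L1 (adjusted p = 8.06e-07 there), Sort1 by -7.31 ± 1.86 and -4.15 ± 1.32, and Clgn by -5.41 ± 1.38 and -2.65 ± 0.97.

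Other leading genes had no such counterpart. Paics differed by 1.09 ± 0.22 with IgG2b and by 0.15 ± 0.16 with anti-PD-L1, Morf4l2 by 1.995 ± 0.49 and -0.28 ± 0.35, Traj18 by -2.17 ± 0.56 and -0.13 ± 0.39, and Tcf7 by -0.83 ± 0.30 and -0.04 ± 0.21. The difference between the antibodies, tested as an interaction over all genes in limma, passed the adjusted threshold for 0 genes (smallest adjusted p = 0.330, and 596 genes at an unadjusted p under 0.05), so these genes were not shown to differ between antibodies. Of the 21 genes called with anti-PD-L1, 15 had the same direction with IgG2b, 4 (Entpd1, Gem, Tpm4 and Nr2f6) with an unadjusted p under 0.05. The level of macrophage markers also differed with the antibody, being 860 to 6771 over the 12 anti-PD-L1 samples and 9795 to 20354 over the 6 IgG2b samples.

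**Figure D5:**
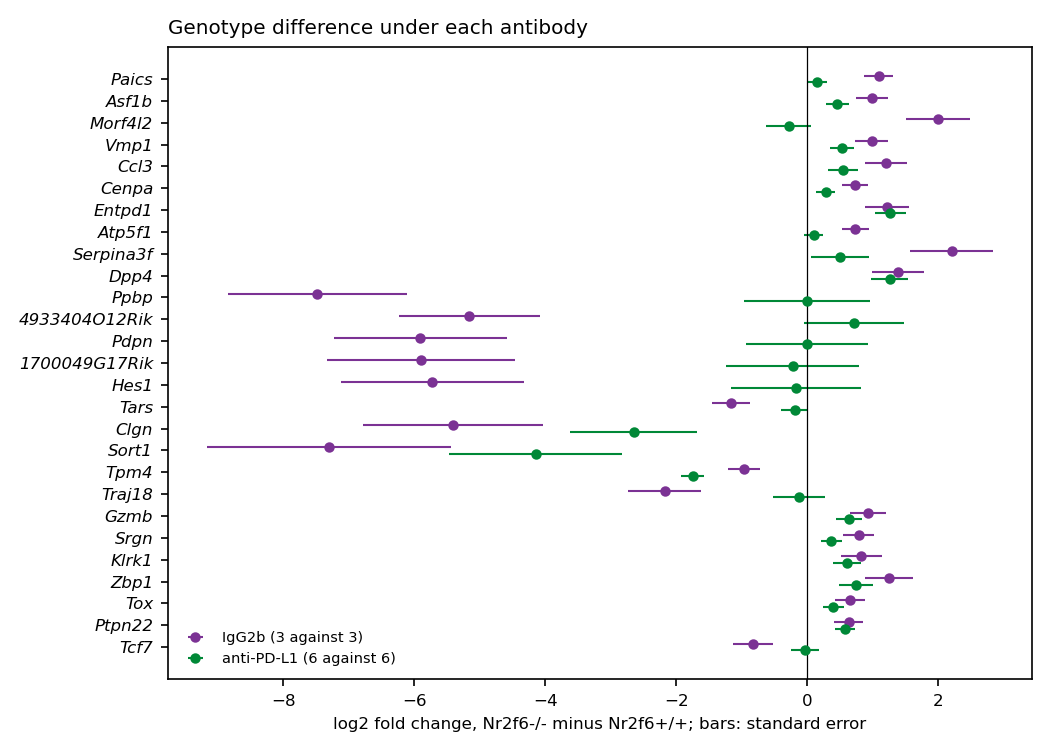
Log2 fold change of Nr2f6-/- against Nr2f6+/+ (x axis, points with standard error bars) for the leading genes, with IgG2b (purple, 3 against 3 samples) and with anti-PD-L1 (green, 6 against 6). Entpd1 and Dpp4 nearly coincide, while Paics, Morf4l2, Traj18 and Tcf7 lie away from 0 with IgG2b and near it with anti-PD-L1. Ppbp and Pdpn had no read with anti-PD-L1, and their green points at 0 carry no measurement.

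Several of the leading genes lie on chromosome 8 near Nr2f6. Within 20 Mb of it 213 genes were tested, of which 9 were higher and 9 lower at an unadjusted p under 0.05, 8.45% against 5.35% of all genes. Within 5 Mb it was 3 higher and 7 lower of 100, and within 40 Mb 11 higher and 20 lower of 384. Of the 18 genes within 20 Mb, 8 were also past that threshold in the same direction with anti-PD-L1, where 16.9% of the 213 genes were, against 9.73% of all genes. Cyp4f18, among the 9 lower genes, passed the filter only through the wild-type IgG2b samples, where its mean was 61.8. Whether sequence beside the deletion differs between the genotypes was not tested.

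Tpm4 (72135288 to 72153142) lies 0.753 Mb from Nr2f6 and Ocel1 (71371298 to 71373689) directly beside it. Ocel1 was at 409, 745 and 526 in Nr2f6-/- samples and at 102, 364 and 77.9 in wild-type samples (log2 fold change 1.92 ± 0.68, adjusted p = 0.846), above the wild-type range in all 3. Fcho1, an endocytic adaptor 0.326 Mb away, was at 425, 614 and 194 against 1137, 751 and 636. Asf1b, named above, lies 12.6 Mb away. Msmo1, an enzyme of cholesterol synthesis 6.64 Mb away, was at 1781, 1873 and 1240 against 662, 1115 and 759, and was lower in the knockout with anti-PD-L1, with a log2 fold change of -1.08 ± 0.26.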

How the data were processed

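RNA of sorted CD3+ cells was sequenced from the 3′ end (QuantSeq) on Ion Torrent. The authors deposited a signal per gene, read counts divided by DESeq2 size factors. Their processing notes name cutadapt, Trimmomatic, STAR, Bowtie2, HTSeq, DESeq2 and mm10; reads shorter than 22 nt were removed. The annotation and strand setting are not given in the sources used here. Whole reads were recovered for 100% of values (tolerance 0.05 reads). Floors of 3 reads cover counting error only.

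Genes averaging 10 or more were tested with limma 3.58.1 (R 4.3.3) on log2(value + 1), with 4 group means over 18 samples, trended eBayes and Benjamini-Hochberg adjustment. edgeR 4.0.16 and DESeq2 1.42.0 on recovered reads were alternatives. Scripts were tested on simulated data. The study describes the groups as treated mice, but the labels name no animal or pool per sample, and p-values measure the spread between these samples. Named were the 10 genes with the smallest p and the 5 largest (mean of 100 or more) per direction, genes within 20 Mb of Nr2f6 and members of lists past an unadjusted p of 0.05; other genes are well-known members. The comparison and lists were chosen with earlier results of these data known. Promoters came from RefSeq (GRCm38.p6), which matched 8826 of the 11992 genes. Some results are not reported here.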

Additional observations from a re-analysis of the deposited data

How the results depend on the processing

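The number of genes passing an adjusted p of 0.05, 0 as reported, became 1 with a pseudocount of 10 (Ppbp), 14 without the filter (3 higher, 11 lower; 9 were below the filter), 4 with sample weights and 74 with DESeq2, and was 0 under the other settings, each replicate left out included. The number of genes with unadjusted p under 0.05, 641, became 1274 without the filter, 1041 with only the 6 IgG2b samples and 1080 with sample weights, and ranged from 464 (without wild-type replicate 2) to 650 (without Nr2f6-/- replicate 2) when 1 sample was left out. Quantile normalization gave 322 higher and 380 lower genes, and scaling to the same total 202 and 445. The difference in the log2 ratio of Cd8a to Cd4, 0.279, was 0.806 without Nr2f6-/- replicate 1 and reversed to -0.232 without Nr2f6-/- replicate 2. The causes were not tested. The 78 genes named by rank, by position near Nr2f6 or as list members with an unadjusted p under 0.05 kept their direction in all 1471 values computed under the alternatives, and 21 of these values passed the adjusted threshold. All but Nr2f6 were picked for their values in these same samples. Their kept direction was therefore largely fixed by the choice and is no independent evidence. Replicate numbers did not pair the samples, since the correlations of same-numbered deviations were -0.00066, 0.0029 and 0.0056 and not every sample correlated best with its own number; with a replicate block 0 genes passed the adjusted threshold and 668 (18 samples) or 805 (6 samples) the unadjusted one. 3 samples per genotype limit the precision, and genes with few reads can be at 0 by counting alone.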

Other observations

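Both lists here were drawn up after the values had been seen and are descriptions with no test. Of the 13 protein genes of the mitochondrial genome 8 passed the filter. The others, mt-Co2, mt-Co3, mt-Atp6, mt-Atp8 and mt-Nd4l, were at 0 in all 6 IgG2b samples. Why they had no reads was not tested, and low expression is not shown by these values. Of the 8 genes, 7 were above 0 in Nr2f6-/- samples with IgG2b, with a median log2 fold change of 0.58. An unadjusted p under 0.05 was found for 3 (mt-Nd2, mt-Nd4 and mt-Cytb). Of all genes 45.6% were above 0, and 2.03% were higher and 3.32% lower at that threshold. mt-Nd4, a subunit of complex I, was at 12571, 8272 and 11094 in Nr2f6-/- samples and at 6026, 6801 and 4527 in wild-type samples. The share of reads on all mitochondrial genes was 5.36% to 6.72% in Nr2f6-/- and 3.18% to 5.96% in wild-type samples, with overlap. Most of this share was the ribosomal RNA genes mt-Rnr1 and mt-Rnr2, with 4.82% to 5.92% and 2.77% to 5.52%. It therefore does not describe the protein genes.

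Of 19 genes of sterol synthesis 3 were higher (Hmgcs1, Msmo1 and Dhcr7) and 1 lower (Ebp) at an unadjusted p under 0.05, with a median of 0.25 with IgG2b and of -0.45 with anti-PD-L1. With IgG2b 2.03% of all genes were higher and 3.32% lower at that threshold. Dhcr7, which makes cholesterol in the last step of the pathway, was at 837, 484 and 516 in Nr2f6-/- samples and at 238, 184 and 219 in wild-type samples. Msmo1 differed by 0.96 ± 0.36 (SE) with IgG2b and by -1.08 ± 0.26 with anti-PD-L1, and the interaction did not pass the adjusted threshold (adjusted p = 0.330 in limma).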
